A study of Homo sapiens with 4 samples.

Results

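The genes described here are 10 components of Notch signalling in T cells: the receptors NOTCH1, NOTCH2 and NOTCH3, the nuclear cofactors RBPJ and MAML1, the targets HES1, DTX1, PTCRA and MYC, and the ubiquitin ligase subunit FBXW7. They were chosen by name, as every row of the deposited table whose gene symbol is one of them, which gave 11 of 16328 rows, because FBXW7 has 2. Expression was measured in Jurkat, an established human T cell leukemia line, in 4 libraries: 1 labelled Control, from cells given a control hairpin RNA, and 3 labelled SLEAR shRNA-1, -2 and -3, from cells that received SLEAR hairpins. SLEAR is named in the title of the series in connection with systemic lupus erythematosus and apoptosis. Per the labels' protocols the hairpins came from a lentiviral vector, pGreenPuro, the cells were grown in the same serum-supplemented medium, and libraries were made by MAPS, which reads the sequence next to the poly(A) tail. No time after transduction is given. The labels also do not say whether the numbers stand for separate hairpins, cultures or repeats, so the spread behind each p-value is that between these libraries and may be technical.

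Notch receptors are cleaved after binding a ligand on a neighbouring cell. The freed intracellular part moves to the nucleus, where it joins the DNA-binding protein RBPJ and a Mastermind protein such as MAML1 to switch on targets. In developing T cells these targets include the repressor HES1, the ubiquitin ligase DTX1, PTCRA, which encodes the pre-T cell receptor alpha chain, and MYC. FBXW7 is the substrate-binding subunit of an SCF ubiquitin ligase that marks the NOTCH1 intracellular part and the MYC protein for degradation, and NOTCH1 and FBXW7 are among the genes most often mutated in T cell leukemia. Jurkat is known to carry a mutation in each of these genes. RNA levels, as measured here, say nothing of receptor cleavage or protein stability.

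HES1 is the textbook direct target of RBPJ, and its promoter is shown because HES1 is the one member that passed a test in any analysis. That analysis left out SLEAR shRNA-3 and rows of low level, and held only 3 of the 9 tested member rows: NOTCH1, MAML1 and HES1. The core of the RBPJ site, TGGGAA, is in capitals in the following stretch of the RefSeq promoter, at chr3:194136018-194136117 of GRCh38.p14 on the + strand, from 130 to 31 bases upstream of the transcription start.
HES1: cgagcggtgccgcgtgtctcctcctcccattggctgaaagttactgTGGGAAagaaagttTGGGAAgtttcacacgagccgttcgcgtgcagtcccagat
The copies begin 84 and 70 bases upstream of the start and are 8 bases apart. Searched on both strands in windows of 300 bases that begin 250 bases upstream of each start, TGGGAA was present in 24.0% of 35116 promoters, and at least 2 copies in 3.80%. The table matched 8 of the 10 genes, with 15 windows, of which 2 held TGGGAA: that of HES1 and 1 of the 5 of RBPJ. The E-box CACGTG, a site of MYC with MAX, was in 0 of these 15 windows and in 7.26% of all promoters. The N-box CACNAG, to which HES proteins bind, was in 8 of the 15 windows and 38.0% of all. In the HES1 window it did not overlap TGGGAA. A match describes these letters and is not evidence of binding. RBPJ sites with other letters were not searched for and are not in capitals.

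All values are RPM as deposited, a read number scaled to a common library total. The depth, estimated from the value of 1 read, was 4814164 reads in SLEAR shRNA-3 and 7048617 to 8384887 in the others. Library SLEAR shRNA-3 stood apart: over tested rows its correlation of log2 values with the other libraries was 0.878 to 0.886, against 0.963 to 0.977 among these, and 6941 rows were at 0 in it against 2314 to 2984. The tested differences of the members are therefore given also without it. T lineage markers summed to 3141 RPM in the Control library and to 3517, 3515 and 3702 RPM with SLEAR shRNA-1, -2 and -3, led by CD3D and LCK. Of the 12 T lineage rows that reached 1 RPM, 3, 2 and 8 were below Control in these libraries. In SLEAR shRNA-3 they included TRAT1 (44.5 RPM in Control and 8.72 RPM there), CD28 (7.87 and 0 RPM) and CD2 (67 and 44.5 RPM), and their part in the results was not tested. In any library CD3G was at most 0.239 RPM, and each of the 3 rows of PTPRC, which encodes CD45, at most 6.23 RPM. Summed markers of myeloid, erythroid, epithelial and fibroblast cells were at most 3.19 RPM in any library. B cell markers summed to 12 to 23.1 RPM, nearly all from CD79A. No row is named SLEAR, so the knockdown was not checked. Pooled cells also cannot show whether fewer cells express a gene or each cell holds less of its RNA.

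NOTCH1 was the receptor with clear expression, and its level in SLEAR shRNA-3 was far from the other libraries. It stood at 61.2 RPM in the Control library, against 68.2, 55.7 and 8.31 RPM with SLEAR shRNA-1, -2 and -3, from 513, 481, 419 and 40 estimated reads. The first 3 libraries lay close together and SLEAR shRNA-3 was 7.36-fold below Control. Its exact Poisson 95% interval there was 5.94 to 11.3 RPM, against 56 to 66.7 RPM in Control, and the intervals did not overlap. Intervals of this kind cover counting error only, since PCR copies are not told apart. The share of all rows whose intervals separate in this way was not counted, here or for the members below. Among 1510 rows at 30 to 100 RPM in the other 3 libraries, 0.993% were as low or lower in SLEAR shRNA-3 relative to SLEAR shRNA-1 and -2. By the limma-trend test on log2(RPM + 1), NOTCH1 had a log2 difference, SLEAR shRNA minus Control, of -0.91 ± 1.26 (SE; 95% interval -4.28 to 2.47; adjusted p = 0.993). Without SLEAR shRNA-3 the difference was 0.01 ± 0.18 (SE), so the lower mean rests on that library.

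NOTCH2 and NOTCH3 were near the limit of detection. NOTCH2 was at 0 RPM in Control, SLEAR shRNA-1 and SLEAR shRNA-3 and at 0.664 RPM, 5 estimated reads, in SLEAR shRNA-2. Where a row is at 0, up to 3 reads may have been missed, or 0.358 RPM for Control and 0.426, 0.399 and 0.623 RPM for SLEAR shRNA-1, -2 and -3. NOTCH3, which is a Notch target as well as a receptor, stood at 0.835 RPM in the Control library, against 0.851, 1.59 and 0.623 RPM. Its counting intervals overlapped in all 4 libraries, and no difference was detectable at this depth: the log2 difference was 0.11 ± 0.60 (SE), 0.26 without SLEAR shRNA-3 and -0.08 without SLEAR shRNA-2. NOTCH2 has partial copies elsewhere in the genome, and the assignment of reads shared between copies is not stated.

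Of the nuclear cofactors, MAML1 was lower than Control in all 3 SLEAR shRNA libraries. MAML1, the coactivator that completes the Notch transcription complex, stood at 41.3 RPM in the Control library, against 31.8, 23.8 and 22.2 RPM with SLEAR shRNA-1, -2 and -3. The 1 Control value thus lay above all 3 others, and 28.6% of all rows tested were likewise lower in all 3 libraries. The counting interval of Control (37 to 45.9 RPM) did not overlap the highest of the others (27.8 to 36.2 RPM). The log2 difference of -0.67 ± 0.36 (SE) did not pass the limma-trend test (adjusted p = 0.993). Without SLEAR shRNA-3 it was -0.57 ± 0.25 (SE; adjusted p = 0.408), and among rows with a mean log2 of 4 or more the adjusted p was 0.0915. The RBPJ row was at 0 RPM in Control and SLEAR shRNA-3 and at 0.284 and 0.266 RPM, 2 estimated reads each, in SLEAR shRNA-1 and -2. RBPJ is the DNA-binding partner of every Notch receptor, and it has processed pseudogenes that can share its reads, so the low value of its 1 row, which stands for 4 RefSeq transcripts, is uncertain.

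**Figure D1:**
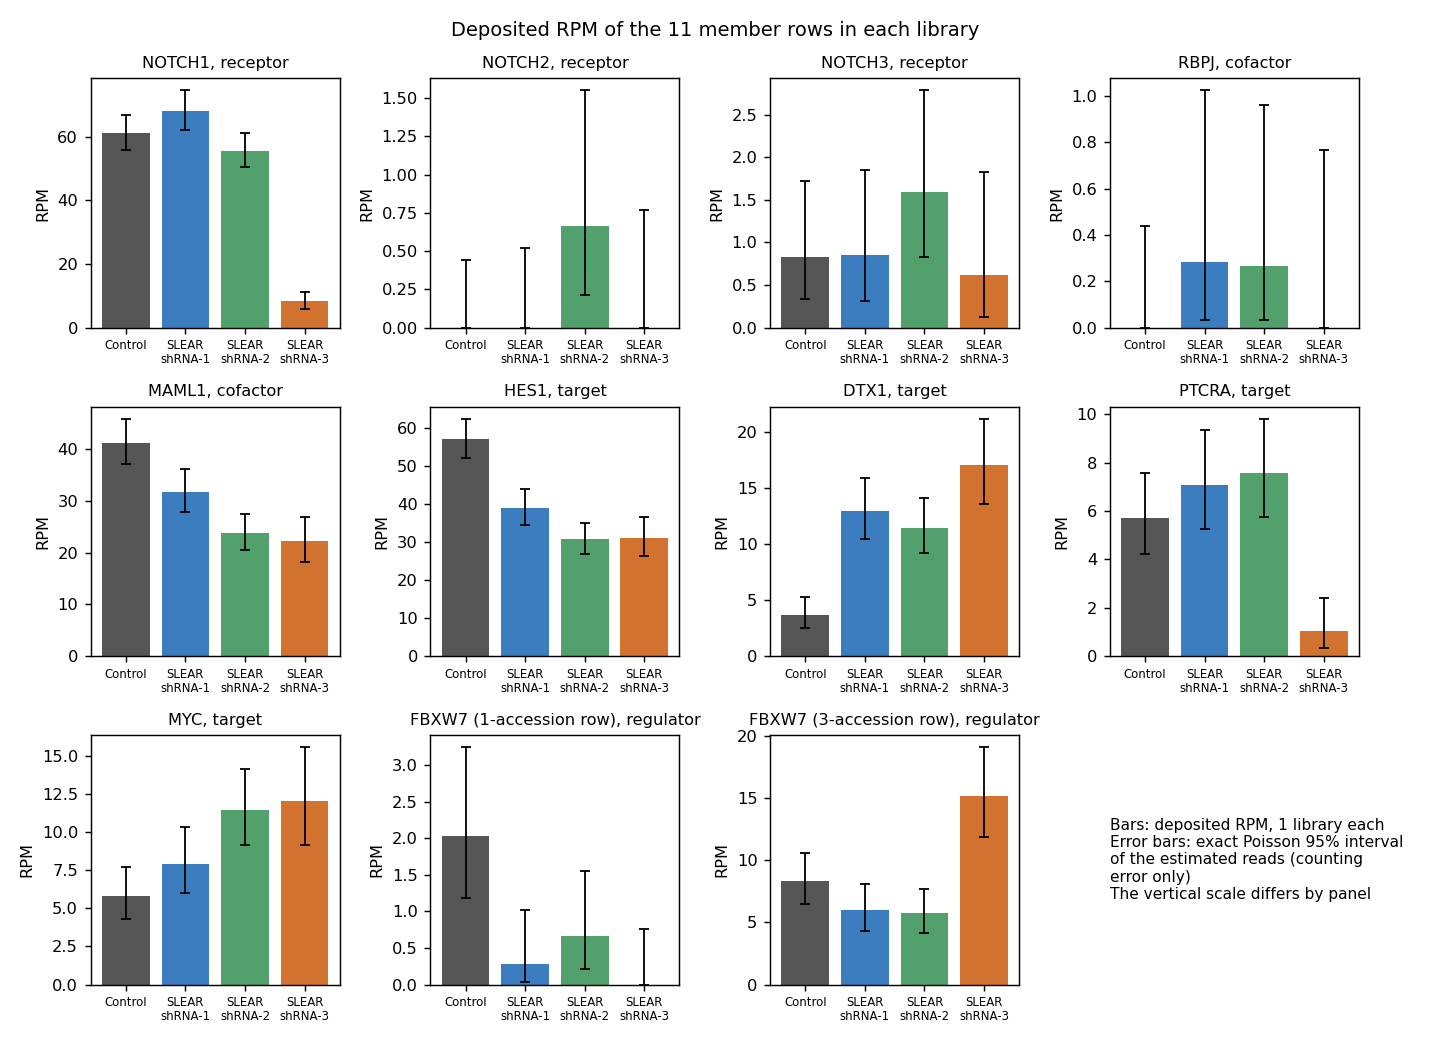
Deposited RPM (vertical axis, a different scale in each panel) of the 11 rows in Control and SLEAR shRNA-1, -2 and -3 (1 bar per library). Error bars are exact Poisson 95% intervals of the estimated reads; NOTCH1 is at 8.31 RPM in SLEAR shRNA-3 against 55.7 to 68.2 RPM elsewhere, and DTX1 and HES1 each separate Control from all 3 SLEAR shRNA libraries, in opposite directions.

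The targets did not move together. HES1, a transcriptional repressor that blocks alternative fates in T cell progenitors, stood at 57.1 RPM in the Control library, against 39, 30.8 and 31.2 RPM with SLEAR shRNA-1, -2 and -3, which is 1.46-fold, 1.85-fold and 1.83-fold lower. The SLEAR shRNA values lay within 1.27-fold of each other, and the counting interval of Control (52.1 to 62.5 RPM) was above all of theirs (26.4 to 43.9 RPM over the 3 libraries). The log2 difference of -0.75 ± 0.30 (SE; 95% interval -1.54 to 0.04) did not pass the limma-trend test over all rows (unadjusted p = 0.0571, adjusted p = 0.993). Among 2045 rows at 30 to 100 RPM in Control, 3.57% were at least 1.46-fold lower in each of the SLEAR shRNA libraries. Without SLEAR shRNA-3 and among the 4851 rows whose mean log2 value was 4 or more, HES1 fell by 0.70 ± 0.22 (SE) on the log2 scale (limma-trend adjusted p = 0.0155). In that analysis 14.4% of all rows passed, 7.11% higher and 7.26% lower, and the spread was pooled completely over rows.

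DTX1, an E3 ubiquitin ligase that acts on Notch receptors and is itself induced by Notch, had the opposite order. It stood at 3.70 RPM in the Control library, against 12.9, 11.4 and 17 RPM with SLEAR shRNA-1, -2 and -3, from 31, 91, 86 and 82 estimated reads. Each SLEAR shRNA library was above Control, by 3.49-fold, 3.09-fold and 4.61-fold, and their counting intervals (9.14 to 21.1 RPM over the 3) lay above that of Control (2.51 to 5.25 RPM). Among 3128 rows at 2 to 8 RPM in Control, 0.0959% (3 rows, DTX1 among them) were at least 3.09-fold higher in each SLEAR shRNA library. The log2 difference was 1.64 ± 0.56 (SE; 95% interval 0.15 to 3.12). It had the smallest unadjusted p of the members (0.0373) and did not pass over all rows (limma-trend adjusted p = 0.993). Its mean log2 value, 3.46, kept it out of the analysis limited to rows of at least 4, and without SLEAR shRNA-3 over all rows the difference was 1.49 (adjusted p = 0.368).

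MYC, the growth-promoting transcription factor that Notch induces in T cell leukemia, was also higher in all 3 SLEAR shRNA libraries. It stood at 5.84 RPM in the Control library, against 7.94, 11.4 and 12 RPM with SLEAR shRNA-1, -2 and -3, from 49, 56, 86 and 58 estimated reads. The counting interval of SLEAR shRNA-1 (6 to 10.3 RPM) overlapped that of Control (4.32 to 7.73 RPM), and those of SLEAR shRNA-2 and -3 did not. The log2 difference of 0.73 ± 0.59 (SE; 95% interval -0.85 to 2.30) did not pass (limma-trend adjusted p = 0.993), and it was 0.62 ± 0.37 (SE; adjusted p = 0.492) without SLEAR shRNA-3. A rise at least as large as the 1.36-fold of SLEAR shRNA-1 in every library was seen in 6.36% of the 3128 rows at 2 to 8 RPM in Control.

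PTCRA, like NOTCH1, was lowest in SLEAR shRNA-3. It stood at 5.72 RPM in the Control library, against 7.09, 7.58 and 1.04 RPM with SLEAR shRNA-1, -2 and -3, from 48, 50, 57 and 5 estimated reads. The first 3 had overlapping counting intervals, and that of SLEAR shRNA-3 (0.337 to 2.42 RPM) lay below them. A value that low was common there: among 406 rows at 4 to 8 RPM in the other 3 libraries, 28.8% were as low or lower in SLEAR shRNA-3 relative to SLEAR shRNA-1 and -2, and 24.1% were at 0. The log2 difference of -0.37 ± 1.14 (SE) did not pass (limma-trend adjusted p = 0.993) and turned to 0.31 without SLEAR shRNA-3.

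FBXW7 was measured by 2 rows that did not follow each other. The row that stands for 3 RefSeq transcripts stood at 8.35 RPM in the Control library, against 5.96, 5.71 and 15.2 RPM with SLEAR shRNA-1, -2 and -3. SLEAR shRNA-3 was the highest library and the other SLEAR shRNA libraries were below Control, with counting intervals that overlapped that of Control (6.51 to 10.5 RPM). The interval of SLEAR shRNA-3 (11.9 to 19.1 RPM) lay above it. The log2 difference was -0.04 ± 0.79 (SE), and it was -0.45 without SLEAR shRNA-3 and 0.16 and 0.18 without SLEAR shRNA-1 or -2. The row that stands for 1 transcript, NM_001257069, stood at 2.03 RPM in the Control library, against 0.284, 0.664 and 0 RPM, from 17, 2, 5 and 0 estimated reads. It was lower in all 3 libraries, with a log2 difference of -1.23 ± 0.55 (SE; adjusted p = 0.993), but as only its Control value reached 1 RPM this direction was fixed by the filter. Without SLEAR shRNA-3 the difference was -1.05 (adjusted p = 0.370). With both rows summed, the log2 difference was -0.26. The labels do not say how reads were divided between the rows.

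**Figure D2:**
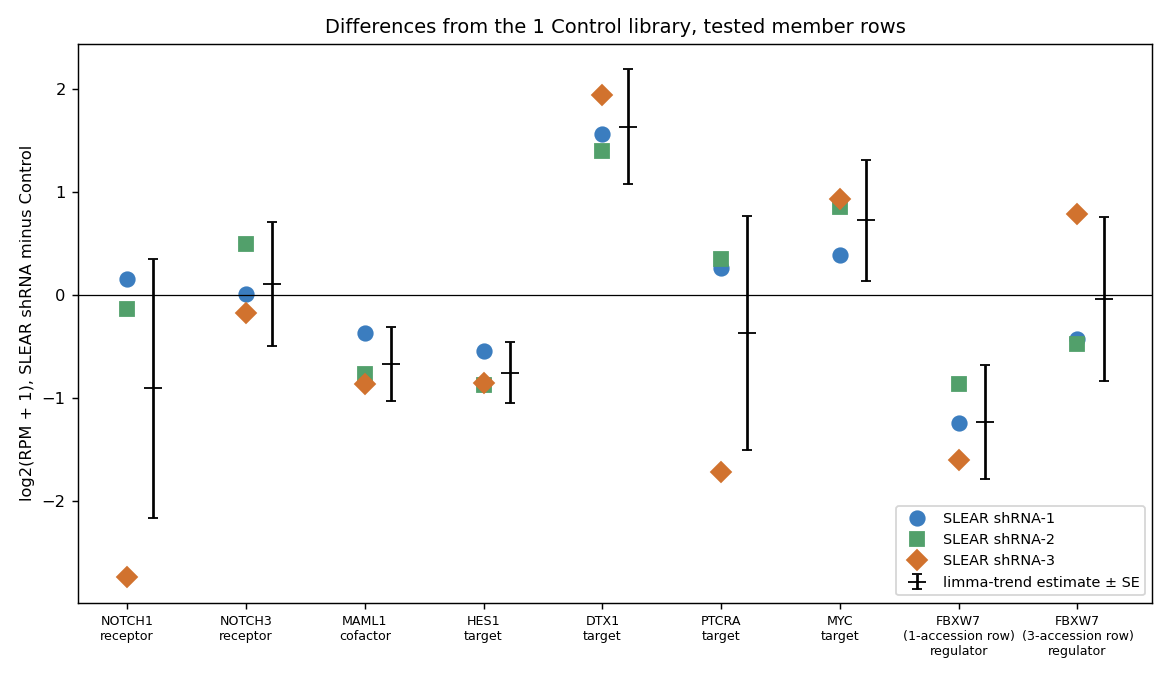
Log2(RPM + 1) of each SLEAR shRNA library minus the 1 Control library (vertical axis) for the 9 tested rows, by gene and role (horizontal axis); black marks are the limma-trend estimate with its SE. DTX1 lies above 0 and HES1 and MAML1 below 0 in all 3 libraries, while NOTCH1 and PTCRA spread widely, with SLEAR shRNA-3 lowest.

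Of the 11 rows, 9 reached 1 RPM in at least 1 library and were tested, and those of NOTCH2 and RBPJ did not. At an adjusted p under 0.05, limma-trend called 0 of the 9, as it called 0 (0% higher and 0% lower) of all 12350 rows, of which 92 on the higher and 239 on the lower side had an unadjusted p under 0.05. Limma-voom on the reads so estimated called 0 too, with 69 and 222 on each side at that unadjusted level. DTX1 and MYC (2 of 9) were higher in all 3 SLEAR shRNA libraries, against 17.8% of all rows tested. MAML1, HES1 and the 1-transcript row of FBXW7 (3 of 9) were lower in all 3, against 28.6% of all rows. The FBXW7 row passed the filter through Control alone and so had to be lower, as did 3.95% of all rows tested. Both shares are near the background, and the 3 differences of a row share 1 Control. Counting only SLEAR shRNA-1 and -2, 4 of 9 rows were higher in both (35.2% of all rows) and 4 were lower in both (41% of all rows). The test takes its spread from the SLEAR shRNA samples alone (n = 3), and the unreplicated Control was assumed to vary like them.

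Receptors and cofactors were set beside targets by the median log2 difference from Control of the members of each group, as a description with no test. For the 3 tested rows of receptors and cofactors it was 0.01, -0.13 and -0.86 in SLEAR shRNA-1, -2 and -3. With NOTCH2 and RBPJ, which hold 0 to 5 estimated reads, the 5 rows had medians of 0.01, 0.34 and -0.18, so the sign in SLEAR shRNA-2 rests on these untested rows. For the 4 targets it was 0.33, 0.61 and 0.04, and for all rows tested -0.02, -0.04 and -0.23. The targets' median was higher than either of these in each library, yet the members of each group overlapped: targets ranged from -0.54 to 1.57 in SLEAR shRNA-1, from -0.87 to 1.40 in SLEAR shRNA-2 and from -1.72 to 1.94 in SLEAR shRNA-3. The 5 receptors and cofactors ranged from -0.37 to 0.36, from -0.77 to 0.74 and from -2.74 to 0. Among members at 4 RPM or more in Control the medians were -0.11, -0.45 and -1.80 for the 2 receptors and cofactors. For the 3 targets they were 0.27, 0.35 and -0.85, since this cut left out DTX1, at 3.70 RPM in Control. The targets thus stayed above the receptors and cofactors in each library, but in SLEAR shRNA-3 their median was below the -0.23 of all rows tested. With NOTCH3 counted among the targets, their medians were 0.27, 0.50 and -0.18, and the last equals that of the 5 receptors and cofactors because NOTCH3 is the middle value of both.

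**Figure D3:**
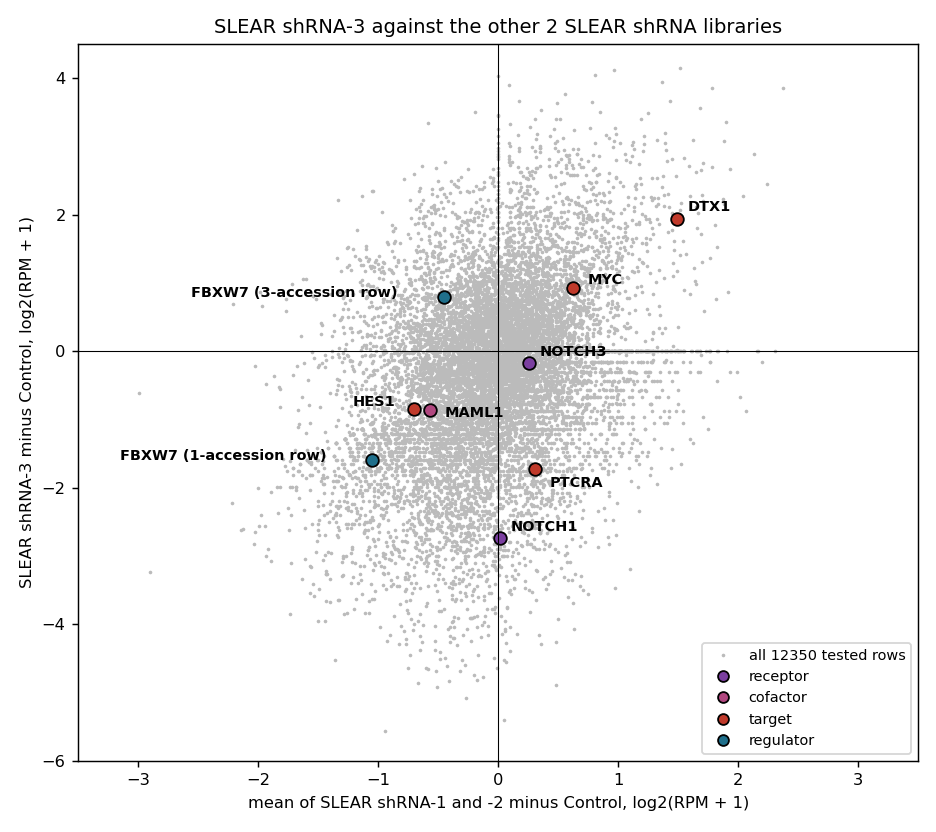
Log2(RPM + 1) difference from Control in SLEAR shRNA-3 (vertical axis) against the mean difference of SLEAR shRNA-1 and -2 (horizontal axis), for all 12350 tested rows (grey) and the 9 tested rows of the described genes (coloured by role). HES1, MAML1 and DTX1 lie on the same side of 0 on both axes, NOTCH1 lies near 0 horizontally and at -2.74 vertically, and both axes share the 1 Control library.

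The libraries' pattern was compared with that of the other rows by the Euclidean distance between log2(RPM + 1) values centred on each row's mean, over 4 libraries and the rows whose mean log2 value was 4 or more. Nearest to HES1 were TMEM263 (distance 0.11), COL4A3BP (0.11) and FANCL (0.13); TMEM263 stood at 84.2 RPM in the Control library, against 56.2, 43.5 and 41.5 RPM with SLEAR shRNA-1, -2 and -3. Nearest to DTX1 were HADHA (0.31), RPP40 (0.33) and TMC6 (0.39), with RPP40 at 14.3 RPM in the Control library and 37.3, 33.2 and 41.3 RPM. Nearest to MYC were UQCRC1 (0.11), ADGRE5 (0.12) and ZNF174 (0.13), with UQCRC1 at 11.4 RPM in the Control library and 15.6, 20.3 and 23.9 RPM. Over so few libraries this likeness is a description only.

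Among the other genes of the pathway, none passed the test on all libraries. The counts of each list below stand beside shares over all rows tested of 17.8% higher and 28.6% lower in all 3 libraries. No list was tested as a set. Of the listed ligand genes, DLL3 stood at 68.8 RPM in the Control library, against 68.4, 66.1 and 28.6 RPM with SLEAR shRNA-1, -2 and -3. The ligands had 0 of 2 tested rows higher and 2 lower in all 3 libraries, the second being JAG1, at 2.98 RPM in the Control library and 0, 0.532 and 0 RPM with SLEAR shRNA. JAG1 reached 1 RPM in Control alone, so its direction was fixed by the filter. NOTCH4, the remaining receptor, was at most 1.46 RPM in any library. Receptor processing genes had 2 of 8 rows higher and 3 lower, with a median log2 difference of -0.31, against -0.11 for all rows tested. FURIN, the protease that makes the first cut in the receptor, stood at 29.6 RPM in the Control library, against 42.1, 37.9 and 53.8 RPM, and NCSTN, a subunit of the gamma-secretase that releases the intracellular part, at 28.1 RPM against 21.6, 23.5 and 18.9 RPM. FURIN was higher and NCSTN lower in all 3 libraries, and neither passed.

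Glycosyltransferases that modify the receptors had 1 of 4 rows higher and 1 lower, with a median of -0.25. MFNG, a Fringe enzyme, stood at 33.8 RPM in the Control library, against 39.3, 43.7 and 47.2 RPM, and POGLUT1, which adds O-glucose, at 29.6 RPM against 16.7, 19.8 and 15.2 RPM. These were the 2 rows that went one way in all 3 libraries, up and down respectively. Genes of endocytosis and ubiquitin ligases had 1 of 9 rows higher and 2 lower, with a median of -0.21. DTX2, a relative of DTX1, stood at 49.5 RPM in the Control library, against 65.8, 61.7 and 96.2 RPM, and AAK1, a kinase of endocytosis, at 113 RPM against 80.3, 88.8 and 41.8 RPM. DTX2 thus lay on the side of DTX1 at a smaller ratio, and neither DTX2 nor AAK1 passed. The other tested DTX genes of the list were not higher in all 3 libraries. DTX3 stood at 25.8 RPM in the Control library, against 20.4, 25.3 and 35.9 RPM, and DTX3L at 61.1 RPM against 63.1, 51.2 and 45.3 RPM.

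The nuclear complex and its co-regulators, which include MAML1, had 2 of 17 rows higher and 6 lower in all 3 libraries, with a median of -0.11, close to that of all rows tested. EP300, the acetyltransferase recruited by Mastermind proteins, stood at 528 RPM in the Control library, against 392, 414 and 219 RPM with SLEAR shRNA-1, -2 and -3. CCNC, the cyclin of the CDK8 kinase that acts on the Notch intracellular part, stood at 439 RPM in the Control library, against 284, 283 and 120 RPM. Both were lower in all 3 libraries, and both fell in the analysis without SLEAR shRNA-3 among rows with a mean log2 of 4 or more (EP300 log2 difference -0.39 ± 0.14 SE, limma-trend adjusted p = 0.0342; CCNC -0.63 ± 0.14 SE, adjusted p = 0.000444). In that analysis 2 of 10 tested rows of the list were lower, against 7.26% of all rows. MAML2, another Mastermind gene, held 1.43 RPM in Control and was at 0 RPM with every SLEAR shRNA. It is 1 of the 6 lower rows and, like JAG1, reached 1 RPM in Control alone.

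Notch targets known from T cells, a list that holds HES1, DTX1, PTCRA, MYC and NOTCH3, had 4 of 18 rows higher and 4 lower in all 3 libraries, with a median of -0.22. TRIB2, a pseudokinase, stood at 112 RPM in the Control library, against 80, 69.9 and 119 RPM with SLEAR shRNA-1, -2 and -3. TRIB2 fell without SLEAR shRNA-3 among rows with a mean log2 of 4 or more (log2 difference -0.57 ± 0.18 SE, limma-trend adjusted p = 0.0193), but it was not lower in SLEAR shRNA-3. In that analysis 2 of 6 rows of the list were lower, TRIB2 and HES1, against 7.26% of all rows. NRARP, an inhibitor of the Notch complex, held 0.477 RPM in Control and 0 RPM elsewhere. The genes of the SCF ligase of FBXW7 and its substrates had 1 of 9 rows higher and 3 lower, the 1-transcript row of FBXW7 among them, with a median of -0.15. MCL1, a survival protein that FBXW7 marks for degradation, fell without SLEAR shRNA-3 (log2 difference -0.52 ± 0.17 SE, limma-trend adjusted p = 0.0200) and stood at 175 RPM in the Control library, against 107, 139 and 188 RPM, again highest in SLEAR shRNA-3. MTOR, a further substrate, was at 205 RPM against 190.1, 194 and 146 RPM.

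The MYC and MAX network had 4 of 14 rows higher and 3 lower, with a median of 0.15. MNT, a repressor that competes with MYC for MAX, stood at 54.3 RPM in the Control library, against 70.9, 67.4 and 58.4 RPM, and the second row of MYCL, a MYC relative, at 24.4 RPM against 13.8, 18.2 and 24.5 RPM. MYC targets had 6 of 23 rows higher and 5 lower, with a median of -0.05. FBL, the nucleolar methyltransferase fibrillarin, stood at 399 RPM in the Control library, against 501, 508 and 484 RPM, and BOP1, a ribosome biogenesis factor, at 14.2 RPM against 20.3, 23.1 and 36.1 RPM. Both of these were higher in all 3 libraries without passing.

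**Figure D4:**
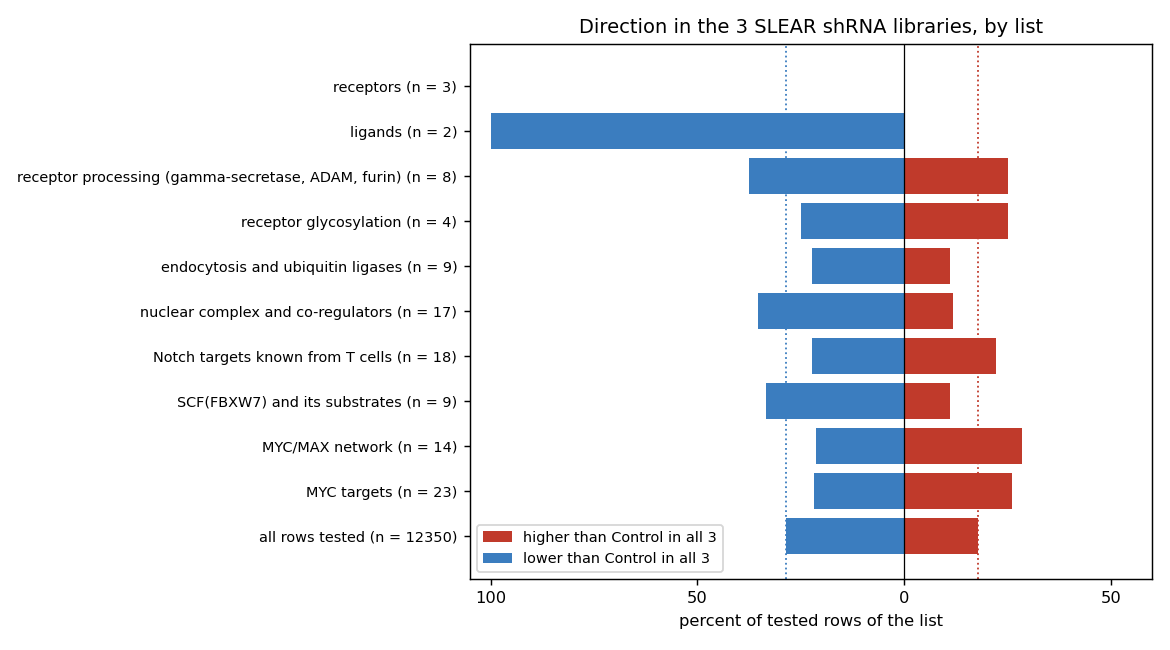
Percent of the tested rows of each list (n rows in brackets) that were higher (right) or lower (left) than Control in all 3 SLEAR shRNA libraries; dotted lines mark the shares over all 12350 tested rows, 17.8% and 28.6%. The lists fall on both sides of these lines, and the bars of the ligands rest on 2 rows.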

How the data were processed

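Libraries from 4 Jurkat samples (1 Control, 3 SLEAR shRNA) were sequenced, per the labels' protocols. The deposited table holds RPM values per transcript row; FastQC, Bowtie2, SAMtools and the build hg19 are named in the submitters' processing notes, and read assignment, strand use and filters are not given in the sources used here, so overlapping genes cannot be told apart. What 1 read is worth was taken from the spacing of the low values. Of the values above 0, 96.4% to 96.8% were whole multiples within 0.05 reads, but 5 to 28 rows lay below 1 read. The limma-trend tests therefore did not treat values as counts, whereas the counting intervals and limma-voom used the estimated reads as counts. The columns sum to 85.3% to 89.5% of the total that RPM implies. Rows identical across the 4 libraries were merged where their mean was 1 RPM or more (177 removed). The 12350 rows that reached 1 RPM in any library were tested with limma-trend (limma 3.58.1, R 4.3.3) on log2(RPM + 1), which understates changes of low rows, with Benjamini-Hochberg adjustment at 0.05; the script was tested on simulated data. Alternatives were other pseudocounts, filters, scalings, limma-voom, array weights, summed rows and left-out libraries. Members, lists and alternatives were chosen with earlier results of these data known; the counts in SLEAR shRNA-1 and -2 alone were added after seeing the data. Named genes were all members, the 2 rows per list with a mean log2 of at least 4 and the smallest p, list members past the threshold in any fit, and 3 nearest rows for HES1, DTX1 and MYC. JAG1, NOTCH4, DTX3 and DTX3L were named after their values were seen. Promoters are from RefSeq, GRCh38.p14.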

Additional observations from a re-analysis of the deposited data

How the results depend on the processing

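The number of rows past the threshold was 0 in every analysis of all rows except without a filter on low values (1 higher and 376 lower, 377 in all, by limma-trend, where rows at 0 in all SLEAR shRNA libraries have no spread; MAML2 and NRARP were among them), and was 697 (345 higher, 352 lower) without SLEAR shRNA-3 among rows whose mean log2 was 4 or more. Leaving out 1 SLEAR shRNA library at a time gave 0 to 0 rows. The log2 differences of DTX1 (1.10 to 1.85 over its alternatives), MYC (0.50 to 0.90), HES1 (-0.86 to -0.69), MAML1 (-0.82 to -0.57) and the 1-transcript row of FBXW7 (-2.79 to -0.40) kept their direction. Each of these rows lay on the same side of Control in all 3 SLEAR shRNA libraries. Leaving out a library or changing the pseudocount or filter therefore could not turn them, and the kept direction is no added support. For the FBXW7 row the direction was also fixed by the filter. HES1 alone passed, at -0.70 without SLEAR shRNA-3 among the higher rows, where only 3 member rows were tested. The log2 differences that turned were those of NOTCH1 (-1.44 to 0.011 when 1 library was left out, and 0.011 without SLEAR shRNA-3 among the higher rows), PTCRA (-0.73 to 0.31 when 1 library was left out, 0.26 with array weights), NOTCH3 (-0.082 to 0.26 when 1 library was left out) and the 3-transcript row of FBXW7 (-0.45 to 0.18 when 1 library was left out, 0.058 with quantile normalization). The median of receptors and cofactors in SLEAR shRNA-2 was 0.86 with a pseudocount of 0.1 RPM and 0.075 with 5 RPM, and among members at 4 RPM or more in Control it was -0.45, and -1.80 in SLEAR shRNA-3, where that of targets was -0.85. That of targets in SLEAR shRNA-3, 0.04, was -0.064 with a pseudocount of 5 RPM. Without SLEAR shRNA-3, 4 rows in place of 2 were higher in every library. RBPJ and NOTCH2 had a fit only without a filter. No paired analysis was possible because 1 Control library stands against 3 SLEAR shRNA libraries.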
